A study of Mus musculus with 12 samples.

Results

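The Myc and Max network was followed through 10 genes in MEFs, which are fibroblasts cultured from mouse embryos. The genes were *Myc*, *Mycn*, *Max*, *Mxd1*, *Mxd3*, *Mxd4*, *Mxi1*, *Mnt*, *Mga* and *Mlx*, picked by symbol, and together they had 26 probe sets among the 45037 tested, which covered 18193 named genes. The brightest probe set of a gene, by its mean over the 12 arrays, stands for the gene. *Mycn* was singled out because of its level on the TKO-Ras arrays, so its values in comparisons with that group are a description selected on these arrays and carry no test. The other 9 genes were taken by name, as paralogues and partners, and were tested.

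RNA of exponentially growing, untreated MEFs was measured on 12 Affymetrix arrays (MOE430 2.0), with 3 arrays in each of 4 groups. TKO-Ras MEFs had deletions of the pocket protein genes *Rb1*, p107 (*Rbl1*) and p130 (*Rbl2*) and carried RasG12D. TKO MEFs had the same deletions without mutated Ras, Rb1KO MEFs were labelled as having a deletion of *Rb1* only, and WT MEFs were wild type. The labels number biological replicates and name no embryos or cultures, so the errors and p-values measure the spread between these samples, which may be technical. Which Ras gene carries the change, and how it was brought into the cells, is not given in the labels, and whether TKO-Ras MEFs were 1 line or several is not given either.

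Most proteins of this network bind DNA as pairs that contain Max, at a short sequence called the E-box, while Mlx forms pairs of its own. Myc and N-Myc, the product of *Mycn*, pair with Max to activate genes of growth such as those for ribosomes, nucleotides and metabolic enzymes, while the Mxd proteins, Mxi1 and Mnt pair with Max and recruit Sin3 and HDAC corepressors to the same sites. In normal development *Mycn* is expressed mainly in embryonic neural and other progenitor cells, and it is known as an oncogene amplified in neuroblastoma. E2F factors, which the pocket proteins hold back, are known activators of *Myc* and *Mycn*.

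Promoters are shown for the members whose levels moved most, because the deletions bear on E2F and because the network acts through E-boxes. The sequences are those of RefSeq on GRCm38.p6, from 250 bases before to 50 bases after the annotated start, written 5′ to 3′ on the strand of the gene. RefSeq promoters were found for 9 of the 10 members, with 11 entries in all, and *Myc* had no entry. Capitals mark E2F words (TTTGGCGC, TTTCGCGC, TTTCCCGC or TTTGCCGC, on both strands) in the first sequence and the E-box CACGTG in the others.
Mycn (chr12:12941787-12942086, minus strand): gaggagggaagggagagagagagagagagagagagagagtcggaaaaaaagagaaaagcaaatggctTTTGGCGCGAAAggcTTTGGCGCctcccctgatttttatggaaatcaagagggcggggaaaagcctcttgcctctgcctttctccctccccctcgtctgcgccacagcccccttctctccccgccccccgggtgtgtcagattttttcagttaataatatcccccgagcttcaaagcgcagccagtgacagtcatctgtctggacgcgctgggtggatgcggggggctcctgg
Mxd4 (chr5:34187661-34187960, minus strand): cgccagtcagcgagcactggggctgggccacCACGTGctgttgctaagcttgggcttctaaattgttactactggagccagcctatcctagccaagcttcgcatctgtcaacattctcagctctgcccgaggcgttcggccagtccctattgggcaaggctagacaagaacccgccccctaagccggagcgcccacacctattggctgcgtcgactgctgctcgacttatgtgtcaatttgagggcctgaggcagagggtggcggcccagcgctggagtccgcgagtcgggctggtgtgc
Mlx (chr11:101087040-101087339, plus strand): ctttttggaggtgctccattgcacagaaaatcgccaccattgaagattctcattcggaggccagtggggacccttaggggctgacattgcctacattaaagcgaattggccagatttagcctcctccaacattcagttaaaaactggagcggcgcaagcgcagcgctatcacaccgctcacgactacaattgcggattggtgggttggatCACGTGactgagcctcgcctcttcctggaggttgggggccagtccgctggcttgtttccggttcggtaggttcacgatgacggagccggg
The *Mycn* window held 3 E2F words, which begin at positions -183, -179 and -168 from the start, and the first and the second of them overlap. It was the only member window with such a word, and 2.265% of 32851 promoters of the same length held at least 1. The E-box was in the windows of *Mxd4* (position -219), *Mlx* (position -40), *Mnt* (position -123) and *Max* (position -3), against 7.15% of all promoters. Neither word was in the window of *Mxd3* (chr13:55329682-55329981, minus strand), which is therefore not printed. These matches describe letters in the windows and say nothing of binding in MEFs.

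The checks of the samples were as follows. The targeted *Rbl1* lay at 4.0 to 4.99 on the TKO-Ras arrays and at 4.42 to 5.12 on the TKO arrays, against 8.32 to 9.0 on the Rb1KO arrays and 8.18 to 8.32 on the WT arrays, all on the log2 scale. *Rbl2* lay at 4.60 to 5.35 on the TKO-Ras arrays and at 5.27 to 5.71 on the TKO arrays, against 7.54 to 7.90 on the WT arrays. It lay between 3.80 and 4.47 on the arrays labelled Rb1KO, where the label names a deletion of *Rb1* only, so every comparison with that group is one with arrays that were low in both genes. *Rb1* lay at 7.45 to 7.66 on the TKO-Ras arrays, at 6.97 to 7.43 on the TKO arrays and at 7.51 to 7.74 on the Rb1KO arrays, below the range of 8.31 to 8.70 on the WT arrays. Signal can remain where a probe set reads outside the deleted stretch. WT replicate 3 stood apart, with a mean correlation of 0.974 with the other WT arrays, where the other 11 arrays had 0.982 to 0.994 with their own groups. Of 11 fibroblast markers, 8 were above background on all TKO-Ras arrays, 8 on all TKO arrays, 10 on all Rb1KO arrays and 9 on all WT arrays. Background was set at 5.13, at the 95th percentile of the values of 44 olfactory receptor probe sets, genes that fibroblasts are not known to use. In RNA of whole cultures, fewer cells of a type and less RNA per cell cannot be told apart.

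*Mycn* had a high level only on the TKO-Ras arrays. Its log2 values were 13.07, 13.39 and 13.09 on the TKO-Ras arrays, 6.66, 6.63 and 6.58 on the TKO arrays, 6.55, 6.88 and 6.68 on the Rb1KO arrays, and 6.35, 6.26 and 6.47 on the WT arrays. The TKO-Ras arrays thus lay far above all 9 others, which fell within a narrow band above background. The mean was 13.18 ± 0.17 (SD, n = 3) in TKO-Ras MEFs and 6.62 ± 0.04 (SD, n = 3) in TKO MEFs, a log2 fold change of 6.56 or 94.5-fold, which had rank 3 by size among 18193 genes in that comparison. Against the mean of 6.36 ± 0.11 (SD, n = 3) in WT MEFs the log2 fold change was 6.83, or 113-fold.

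**Figure D1:**
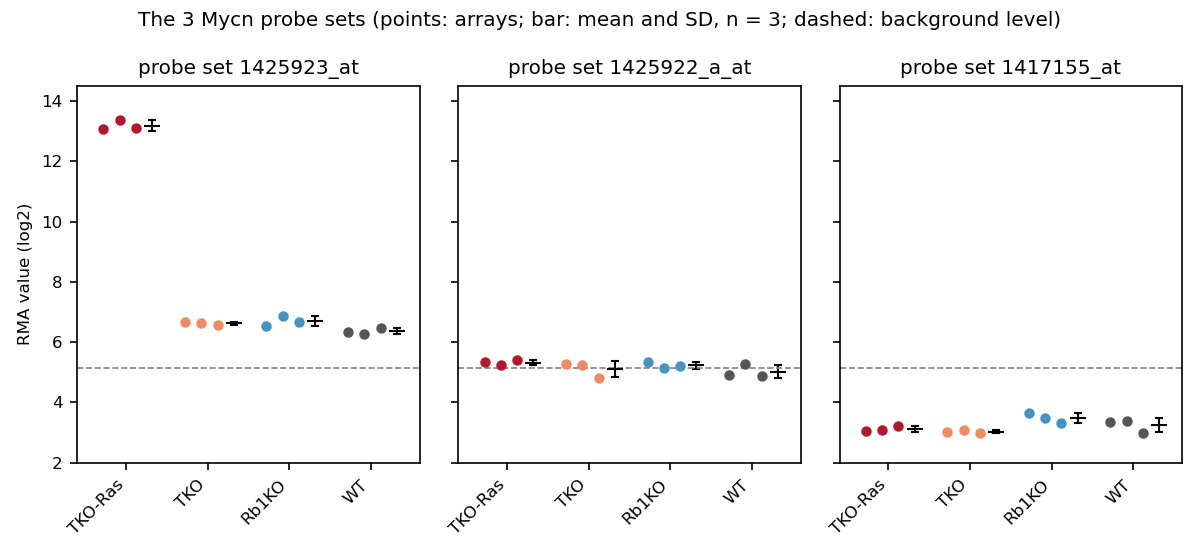
RMA values (log2) of the 3 *Mycn* probe sets on the TKO-Ras, TKO, Rb1KO and WT arrays, where each point is an array, each bar gives the mean and SD of a group (n = 3), and the dashed line marks background at 5.13. The TKO-Ras arrays stand at 13.07 to 13.39 on 1425923_at, whereas they stand at 5.23 to 5.40 on 1425922_a_at and at 3.04 to 3.23 on 1417155_at.

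The high level rested on 1 of the 3 *Mycn* probe sets, 1425923_at. On 1425922_a_at the log2 values were 5.32, 5.23 and 5.40 on the TKO-Ras arrays and 5.27, 5.25 and 4.81 on the TKO arrays, close to background in both. On 1417155_at they were 3.04, 3.09 and 3.23 on the TKO-Ras arrays and 3.0, 3.07 and 3.0 on the TKO arrays, below background on every array of the study. The annotation assigns 1425923_at and 1425922_a_at to the same source sequence. With the mean of all 3 probe sets the log2 fold change in TKO-Ras against TKO was 2.29. The reason for the disagreement was not tested, and whether the full *Mycn* transcript was high cannot be read from these probe sets.

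The groups without mutated Ras differed little in *Mycn*. TKO against WT gave a log2 fold change of 0.26 (adjusted p = 0.15 from limma), and Rb1KO against WT gave 0.35 (adjusted p = 0.055 from limma). The 95% confidence intervals, 0.01 to 0.52 for TKO and 0.09 to 0.60 for Rb1KO, bound these differences well below the one seen with mutated Ras. Between TKO and Rb1KO the log2 fold change was -0.08 (adjusted p = 0.77 from limma). Rb1KO against WT did pass under 5 of 16 alternatives, among them the fits without Rb1KO replicate 1 (0.42) and without WT replicate 3 (0.40), and TKO against WT passed with array weights (0.29, adjusted p = 0.044). In the order of levels, TKO-Ras came first, followed by Rb1KO, TKO and WT, which limma's test over all 12 arrays did not tell apart.

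**Figure D2:**
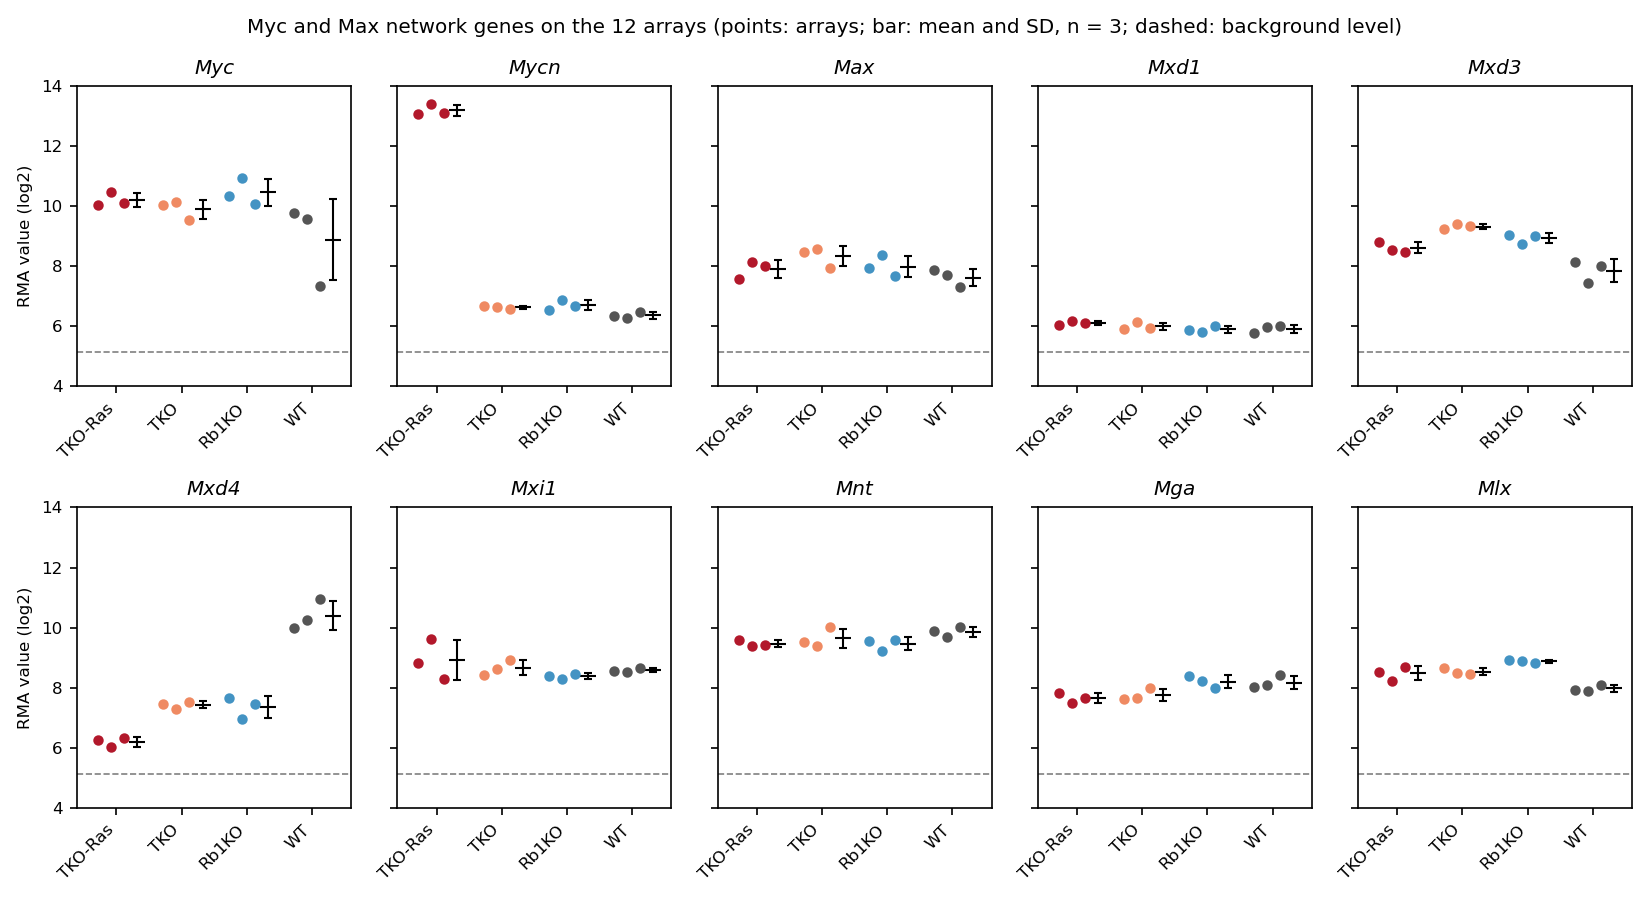
RMA values (log2) of the 10 network genes on the 12 arrays, where each point is an array, each bar gives the mean and SD of a group (n = 3), and the dashed line marks background at 5.13. *Mycn* stands apart on the TKO-Ras arrays and *Mxd4* on the WT arrays, and *Myc* is lowest on WT replicate 3.

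*Myc*, the paralogue used by most dividing cells, was expressed in all 4 groups. The log2 values were 10.04, 10.46 and 10.11 on the TKO-Ras arrays, 10.04, 10.12 and 9.53 on the TKO arrays, 10.35, 10.94 and 10.07 on the Rb1KO arrays, and 9.75, 9.57 and 7.32 on the WT arrays. WT replicate 3 was more than 2 units below every other array, and TKO overlapped with WT. In TKO-Ras against TKO the log2 fold change was 0.31 (95% confidence interval -0.82 to 1.43, adjusted p = 0.81 from limma), so no loss or gain of *Myc* was detected beside the high *Mycn* level. Rb1KO against WT gave 1.58 (adjusted p = 0.047 from limma), but 0.80 without WT replicate 3 (adjusted p = 0.037), and the call was lost without any single Rb1KO array, with array weights, with limma's trend and robust options, without moderation, with cyclic loess and with only these groups in the fit. TKO-Ras against WT gave 1.32 (adjusted p = 0.078 from limma) and TKO against WT gave 1.02 (adjusted p = 0.21 from limma), with 0.54 and 0.24 without WT replicate 3. The first of these passed without WT replicate 1 (1.76) or WT replicate 2 (1.67).

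*Max*, the shared partner, was measured in every group at 7.30 to 8.57 on the log2 scale. Its log2 values were 8.46, 8.57 and 7.94 on the TKO arrays and 7.86, 7.69 and 7.30 on the WT arrays. TKO lay above WT on every array, by a log2 fold change of 0.71 that did not pass (adjusted p = 0.057 from limma), though it did under 6 of 16 alternatives, among them the fit without TKO replicate 3 (0.90). A lack of overlap between TKO and WT held for 34.4% of all probe sets. In the other comparisons *Max* was not called.

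*Mxd4*, which pairs with Max as a repressor in cells that leave the cycle, changed most among the tested members. The log2 values were 6.26, 6.01 and 6.31 on the TKO-Ras arrays, 7.47, 7.30 and 7.52 on the TKO arrays, 7.65, 6.94 and 7.45 on the Rb1KO arrays, and 10.001, 10.25 and 10.94 on the WT arrays. The groups fell into an order with WT highest and TKO-Ras lowest, without overlap except between TKO and Rb1KO. Of all probe sets, 26.5% had no overlap in TKO-Ras against TKO, and 42.4%, 34.4% and 39.1% had none in TKO-Ras, TKO and Rb1KO against WT. Against WT, *Mxd4* fell by 4.20 on the log2 scale in TKO-Ras MEFs (adjusted p = 3.8e-07 from limma), by 2.97 in TKO MEFs (7.82-fold, adjusted p = 9.2e-06) and by 3.05 in Rb1KO MEFs (8.26-fold, adjusted p = 6.6e-06). TKO and Rb1KO differed by 0.08, with a 95% confidence interval of -0.43 to 0.59 (adjusted p = 0.90 from limma).

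The other 3 *Mxd4* probe sets also read lower than in WT. In TKO against WT their log2 fold changes were -2.22 on 1434379_at (adjusted p = 1.0e-04 from limma), -2.07 on 1422574_at (adjusted p = 1.0e-04) and -0.56 on 1422575_at (adjusted p = 0.062). The size of the fall therefore depended on the probe set more than the direction did. In TKO-Ras against TKO the log2 fold change of *Mxd4* was -1.24 (adjusted p = 0.0098 from limma), but -0.61 with the mean of its probe sets (adjusted p = 0.068) and -0.54 on 1422574_at, the brightest probe set without a suffix (adjusted p = 0.25).

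*Mxd3*, a Max partner that is known to be expressed in S phase, went the other way against WT. Its log2 values were 8.82, 8.54 and 8.47 on the TKO-Ras arrays, 9.23, 9.40 and 9.33 on the TKO arrays, 9.05, 8.74 and 9.01 on the Rb1KO arrays, and 8.13, 7.42 and 8.01 on the WT arrays. Every array of the 3 mutant groups was above every WT array. Such a lack of overlap was common, at 42.4%, 34.4% and 39.1% of all probe sets in TKO-Ras, TKO and Rb1KO against WT. *Mxd3* rose by 0.76 in TKO-Ras against WT (adjusted p = 0.0071 from limma), by 1.47 in TKO against WT (adjusted p = 1.5e-04) and by 1.09 in Rb1KO against WT (adjusted p = 9.5e-04). The other probe sets gave 1.26 (1422970_at) and 0.71 (1438847_at) in TKO against WT, both past the threshold. Set against TKO, TKO-Ras MEFs showed a change of -0.71 in *Mxd3* on the log2 scale (adjusted p = 0.037 from limma), a call that was lost without any single array of either group, with adjusted p-values up to 0.13.

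**Figure D3:**
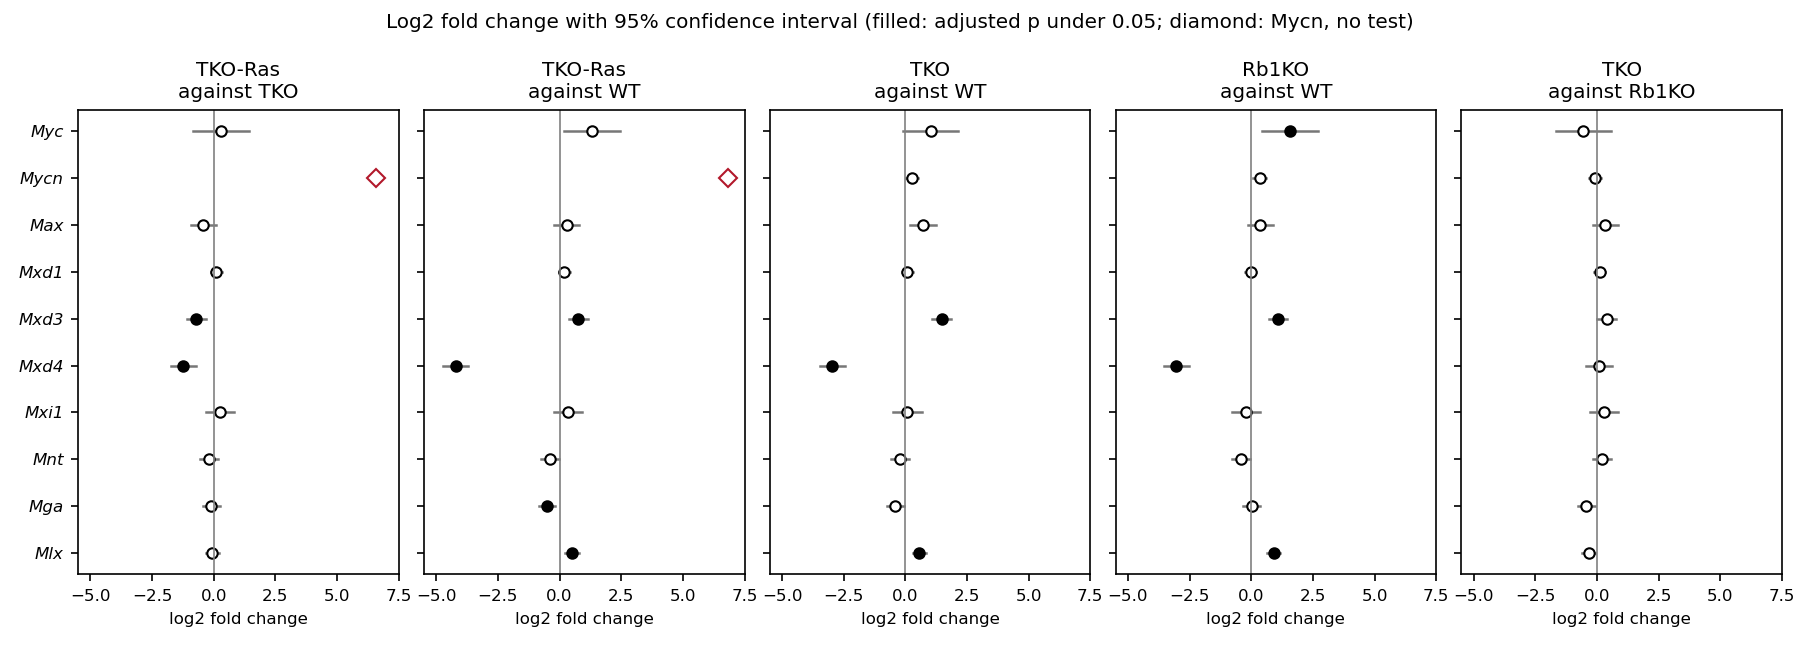
Log2 fold change of the 10 network genes in 5 comparisons, with 95% confidence intervals, where filled points passed limma's test (adjusted p under 0.05) and open ones did not, and the diamond is *Mycn*, drawn without a test. *Mxd4* lies at -4.20, -2.97 and -3.05 in the comparisons with WT, while *Mxd3* lies above 0 in all 3.

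*Mlx*, the Max-like protein that pairs with the glucose-sensing Mondo factors and with some Mxd proteins, was higher than WT in every mutant group on its brightest probe set. Its log2 values were 8.51, 8.22 and 8.69 on the TKO-Ras arrays, 8.66, 8.47 and 8.46 on the TKO arrays, 8.92, 8.89 and 8.82 on the Rb1KO arrays, and 7.93, 7.88 and 8.10 on the WT arrays. No mutant array overlapped with a WT array. *Mlx* rose by 0.50 in TKO-Ras against WT (adjusted p = 0.010 from limma, 0.055 with only these groups in the fit), by 0.56 in TKO against WT (adjusted p = 0.0079) and by 0.90 in Rb1KO against WT (adjusted p = 3.3e-04). Its other probe set had 0.72 in Rb1KO against WT (adjusted p = 0.0061 from limma) and 0.47 in TKO against WT (adjusted p = 0.055), but 0.34 in TKO-Ras against WT (adjusted p = 0.13), where the arrays of the groups overlapped.

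Of the remaining antagonists, *Mga*, the scaffold of a Max-containing repressor complex related to Polycomb, was the only one called on its brightest probe set. Its log2 values were 7.83, 7.48 and 7.66 on the TKO-Ras arrays and 8.01, 8.07 and 8.42 on the WT arrays, with no overlap between the groups. The log2 fold change in TKO-Ras against WT was -0.51 (adjusted p = 0.030 from limma), and it did not pass without WT replicate 3 (-0.39, adjusted p = 0.093), without TKO-Ras replicate 2 (-0.42) or TKO-Ras replicate 3 (-0.51), with array weights (-0.36), without moderation, with only these groups in the fit or with the mean of its 5 probe sets (-0.18, adjusted p = 0.21). *Mxd1* lay between 5.76 and 6.18, *Mxi1* between 8.28 and 9.63, and *Mnt* between 9.21 and 10.03 on the log2 scale over the 12 arrays. The probe sets of *Mxd1*, an antagonist of Myc in differentiating cells, disagreed, since 1434830_at was lower in TKO-Ras against WT (-0.69, adjusted p = 0.0039 from limma, with no overlap between the groups), where the brightest, 1422002_at, had 0.19 (adjusted p = 0.21). *Mnt*, which opposes Myc in dividing cells, had log2 fold changes of -0.40 in TKO-Ras against WT and -0.41 in Rb1KO against WT (adjusted p = 0.097 and 0.11 from limma).

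Counted over the network, 0 to 4 of the 9 members other than *Mycn* were called in a comparison, and 0 to 5 of 10 with *Mycn* included. In TKO-Ras against TKO 2 of these 9 members were called, and each was lower (*Mxd3* and *Mxd4*). Of the 45037 probe sets, 2.54% were called higher and 3.13% called lower there. *Mycn*, which was selected on this contrast, is left out of that count. In TKO-Ras against WT 3 members were higher and 2 lower, against 15.5% and 12.4% of all probe sets. *Mycn*, selected for its level on the TKO-Ras arrays, is among the 3 higher, and without it 4 of 9 members were called. In TKO against WT 2 were higher and 1 lower, against 10.5% and 9.01%, and in Rb1KO against WT 3 were higher and 1 lower, against 12.5% and 10.1%. In TKO against Rb1KO none of the 10 was called by limma, against 4.19% of probe sets higher and 2.99% lower. The lowest adjusted p-values of members there were 0.13 for *Mga* (log2 fold change -0.44) and 0.14 for *Mlx* (-0.34), from limma. The median log2 fold change of the members was -0.07, 0.31, 0.17, 0.18 and 0.09 in these 5 comparisons, in the order given, against 0.04, 0.09, 0.03, 0.07 and -0.04 for all probe sets. Of all named genes, 7.36%, 33.7%, 23.5%, 27.9% and 9.55% were called in either direction in the same order. The members were called more often than that, with or without *Mycn*, in all comparisons but TKO against Rb1KO. With 10 genes a single call weighs much, and whether the members differ from all genes was not tested. The comparisons share groups, so that their results are not independent.

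Genes of growth that Myc proteins are known to activate were followed next, in 4 lists of ribosome biogenesis, nucleotide and polyamine synthesis, translation initiation and metabolism, with 50 measured genes. In TKO-Ras against WT 42 of 50 were higher and none lower, with a median log2 fold change of 0.93, in TKO against WT 22 were higher and none lower with a median of 0.55, and in Rb1KO against WT 38 were higher and 1 lower with a median of 0.90. Of the 18193 named genes, 33.7%, 23.5% and 27.9% were called in either direction in these 3 comparisons, and 7.36% in TKO-Ras against TKO. Without WT replicate 3, in which *Myc* was low, 35, 19 and 36 were higher in these comparisons, with medians of 0.74, 0.38 and 0.74, and without TKO replicate 1 the count in TKO against WT was 14. In TKO-Ras against TKO, where *Mycn* differed, only 2 of the 50 passed and none fell, with a median of 0.24 against 0.04 for all named genes. There 45 of 50 had a log2 fold change above 0, and the share of all genes above 0 was not counted.

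Ribosome biogenesis was the longest of these lists. Of 22 measured, 20 were higher in TKO-Ras against WT, 10 in TKO against WT (5 without TKO replicate 1 or 2) and 21 in Rb1KO against WT, and none was lower in these comparisons. *Fbl*, which encodes the methyltransferase fibrillarin of the nucleolus, had log2 values of 12.47, 12.30 and 12.39 on the TKO-Ras arrays, 12.32, 12.16 and 11.94 on the TKO arrays, 12.59, 12.67 and 12.52 on the Rb1KO arrays, and 11.42, 11.15 and 10.61 on the WT arrays. WT replicate 3 was its lowest array, and no mutant array reached down to the WT arrays. *Fbl* rose by 1.33 in TKO-Ras against WT (adjusted p = 2.1e-04 from limma), by 1.08 in TKO against WT (adjusted p = 0.0013) and by 1.53 in Rb1KO against WT (adjusted p = 9.9e-05). *Nhp2*, a protein of the RNA-modifying snoRNPs, rose by 1.36, 1.21 and 1.53 in the same order of comparisons. In TKO-Ras against TKO 0 of 22 passed (0 to 1 under the alternatives), with a median of 0.30, and in TKO against Rb1KO *Polr1a*, the large subunit of RNA polymerase I, was the 1 gene that fell (-0.79, adjusted p = 0.029 from limma), a call lost without any single array of either group but Rb1KO replicate 3.

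**Figure D4:**
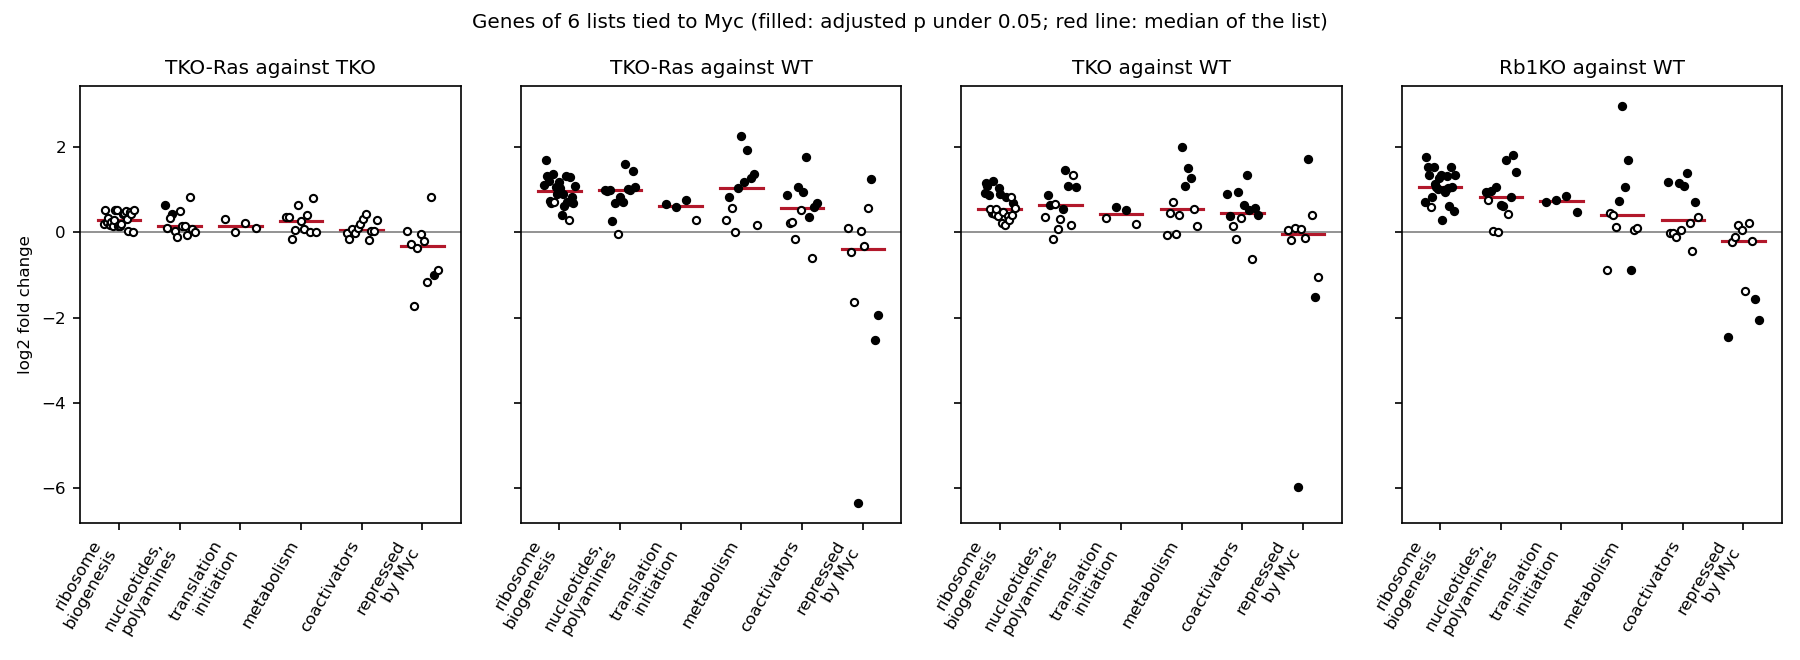
Log2 fold change of each measured gene of 6 lists tied to Myc in 4 comparisons, where filled points passed limma's test (adjusted p under 0.05), open ones did not, and the red line is the median of a list. In the ribosome biogenesis list 20, 10 and 21 of 22 points are filled in TKO-Ras, TKO and Rb1KO against WT, and 0 in TKO-Ras against TKO.

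Of 13 measured genes of nucleotide and polyamine synthesis, 12, 6 and 9 were higher in TKO-Ras, TKO and Rb1KO against WT and none lower, and of 11 genes of metabolism 7, 4 and 4 were higher and 1 was lower, in Rb1KO. *Shmt1*, the cytosolic serine hydroxymethyltransferase of one-carbon metabolism, had a mean log2 value of 9.52 in TKO-Ras MEFs, 9.26 in TKO MEFs and 10.22 in Rb1KO MEFs, against 7.25 in WT MEFs. It rose by 2.27, 2.01 and 2.97 against WT in those groups (adjusted p = 1.8e-06, 8.5e-06 and 5.3e-07 from limma) and was lower by 0.96 in TKO than in Rb1KO (adjusted p = 0.0030). *Ppat*, the first enzyme of purine synthesis, rose by 1.61, 1.47 and 1.70 against WT. The glutamine carrier *Slc1a5* divided the groups, with log2 values of 8.04, 8.38 and 8.16 on the TKO-Ras arrays and 7.74, 8.39 and 8.39 on the TKO arrays, against 5.86, 6.10 and 6.13 on the Rb1KO arrays and 7.04, 6.37 and 7.32 on the WT arrays. TKO exceeded Rb1KO by 2.14 (adjusted p = 2.2e-04 from limma) and WT by 1.27 (adjusted p = 0.0030). Where *Mycn* was high, in TKO-Ras against TKO, the 2 genes that rose were *Cad*, the multifunctional enzyme that starts pyrimidine synthesis (0.63, adjusted p = 0.041 from limma), and *Impdh1*, an enzyme of guanine nucleotide synthesis (0.42, adjusted p = 0.019), and both calls were lost with only these groups in the fit. The count of genes that rose there was 0 to 5 under the alternatives, with 0 without TKO replicate 3, TKO-Ras replicate 1 or TKO-Ras replicate 3, and 1 without TKO replicate 1 or 2.

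Cofactors that the network recruits were higher than WT in part. Of 12 measured coactivators, 7 were higher in TKO-Ras against WT, 8 in TKO against WT and 5 in Rb1KO against WT, with none lower, and none passed in TKO-Ras against TKO. The shares of all named genes called in either direction against WT were 33.7%, 23.5% and 27.9% in the same order. *Ruvbl2*, an ATPase of the TIP60 and INO80 complexes, rose by 1.76, 1.34 and 1.40 against WT in TKO-Ras, TKO and Rb1KO MEFs, and *Kat2a*, an acetyltransferase that Myc recruits, by 1.06, 0.95 and 1.16. Of 8 measured corepressor subunits, 4, 2 and 4 were higher in those comparisons, again with none lower, and the 2 in TKO against WT are near the share of all genes. *Sap30*, a subunit of the Sin3 complex that Mxd proteins recruit, rose by 1.66, 1.82 and 1.80 (adjusted p = 6.4e-05, 5.7e-05 and 5.0e-05 from limma). The count of corepressors in TKO-Ras against WT was 2 without TKO-Ras replicate 1, WT replicate 1 or WT replicate 2.

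Genes that control the stability of Myc proteins changed in numbers near those of all named genes, of which 33.7%, 23.5% and 27.9% were called in TKO-Ras, TKO and Rb1KO against WT. Of 14 measured, 4 were higher and 1 lower in TKO-Ras against WT, 4 were higher in TKO against WT and 5 in Rb1KO against WT, and none passed in TKO-Ras against TKO. Without TKO-Ras replicate 1 or 3 the count of higher genes in TKO-Ras against WT was 2. *Plk1*, a mitotic kinase that stabilizes N-Myc, rose by 0.98, 0.97 and 1.07 against WT in TKO-Ras, TKO and Rb1KO MEFs. *Gsk3b*, the kinase that marks Myc proteins for destruction, fell by 0.66 in TKO-Ras against WT (adjusted p = 0.0050 from limma). *Huwe1*, a ubiquitin ligase that acts on Myc and N-Myc, had log2 values of 9.38, 9.24 and 9.96 on the TKO arrays and 11.37, 10.79 and 11.06 on the Rb1KO arrays. The groups did not overlap, as held for 29.1% of all probe sets in TKO against Rb1KO, and the log2 fold change was -1.55 (adjusted p = 0.0011 from limma).

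Of 5 other genes of the extended network, 1 was higher and 1 lower in TKO-Ras against WT and 1 was higher in Rb1KO against WT. The shares of all named genes called in either direction there were 33.7% and 27.9%. *Mycl*, the third Myc paralogue, had log2 values of 6.62, 7.33 and 6.27 on the Rb1KO arrays and 5.78, 5.90 and 5.12 on the WT arrays, and 5.89, 5.32 and 5.01 on the TKO-Ras arrays. Its rise of 1.14 in Rb1KO against WT (adjusted p = 0.016 from limma) was not called without Rb1KO replicate 2 (0.85). *Mlxip*, a Mondo factor that pairs with Mlx, fell by 0.80 in TKO-Ras against WT (adjusted p = 0.0058 from limma). Neither *Myc* nor *Mycl* was called in TKO-Ras against TKO.

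Genes that Myc is known to repress, and genes tied to the control of *Mycn*, gave few calls. Of 10 genes repressed by Myc, 1 fell in TKO-Ras against TKO, *Pdgfrb*, the receptor for platelet-derived growth factor and also a fibroblast marker (-1.01, adjusted p = 0.0045 from limma). Against WT, 3, 2 and 3 of them were lower and 1, 1 and 0 higher in TKO-Ras, TKO and Rb1KO MEFs. Of all named genes, 33.7%, 23.5% and 27.9% were called in either direction in these comparisons, and 7.36% in TKO-Ras against TKO. The counts of repressed genes are near these shares. *Cdkn2b*, the inhibitor p15 of cyclin-dependent kinases, was at background on the TKO-Ras and TKO arrays, which is at least 42.6-fold below WT MEFs in both (adjusted p = 1.3e-07 and 3.6e-07 from limma). *Cdkn1a*, the inhibitor p21, fell by 2.46 in Rb1KO against WT (adjusted p = 0.0015 from limma) and was not called in TKO-Ras or TKO against WT. Of 11 fibroblast markers, 5 fell and none rose in TKO-Ras against TKO, with a mean level of the list of 9.23 to 9.31 on the TKO-Ras arrays and 9.90 to 10.62 on the TKO arrays. Against WT, beside the same shares of all named genes, 5, 4 and 5 of the 11 were lower and 1, 1 and 0 higher in TKO-Ras, TKO and Rb1KO MEFs. Growth genes and cofactors were higher in the same comparisons. The part of the shifts in fibroblast markers in the other values was not tested.

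Hedgehog signalling, which activates *Mycn* in neural progenitors, was read from 7 measured genes. For this list and the next ones, the share of all named genes called in TKO-Ras against TKO was 7.36%. *Gli2*, a transcription factor of the pathway, had log2 values of 6.07, 6.01 and 6.22 on the TKO-Ras arrays, 8.97, 9.12 and 9.51 on the TKO arrays, and 8.08, 7.74 and 9.79 on the WT arrays. It was lower on each TKO-Ras array than on any TKO or WT array, where 26.5% and 42.4% of all probe sets had no overlap. *Gli2* was the 1 gene of the list that changed in TKO-Ras against TKO (-3.10, adjusted p = 9.8e-04 from limma). Of 6 genes of the Lin28 and let-7 axis, whose microRNAs target *Mycn*, the chromatin protein gene *Hmga2* rose by 1.80 (adjusted p = 0.013 from limma) and the RNA-binding protein gene *Igf2bp3* fell by 1.82 (adjusted p = 0.028) in TKO-Ras against TKO. The call of *Hmga2* was lost without TKO replicate 3 or TKO-Ras replicate 3, that of *Igf2bp3* without any single array of either group but TKO-Ras replicate 3, and *Igf2bp3* read -0.06 on its probe set without a suffix. Of 8 cell cycle and differentiation targets, *Ccnd2*, cyclin D2 and a known target of N-Myc, fell in TKO-Ras against TKO (-1.63, adjusted p = 0.023 from limma), a call lost without TKO replicate 2 or 3 or TKO-Ras replicate 1 or 3.

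Markers of other cells in which *Mycn* is known were looked at beside its level. None of 10 neural markers passed in TKO-Ras against TKO, while against WT 4, 2 and 2 were higher and 1 was lower in each of TKO-Ras, TKO and Rb1KO MEFs. Of all named genes, 33.7%, 23.5% and 27.9% were called in either direction against WT, and 7.36% in TKO-Ras against TKO. The mean log2 level of the neural markers was 5.88 to 6.05 on the TKO-Ras arrays and 5.61 to 5.81 on the TKO arrays. On all arrays of a group, 4 of 10 were at background in TKO-Ras, TKO and WT MEFs and 3 in Rb1KO MEFs. Of 8 pluripotent and germ cell markers, 5 were at background on all TKO-Ras arrays and 6 on all TKO arrays, and 1, *Nanog*, was lower in TKO-Ras than in TKO MEFs (-1.23, adjusted p = 0.0012 from limma).

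The neighbours of *Mycn* on chromosome 12 did not share its level. Up to 5 measured protein-coding genes on each side in RefSeq order were *Msgn1*, *Gen1*, *Smc6*, *Vsnl1* and *Cyria* on one side and *Ddx1*, *Nbas*, *Lratd1*, *Trib2* and *Lpin1* on the other. In TKO-Ras against TKO 0 of the 10 passed by limma, with log2 fold changes from -0.12 to 0.46. *Ddx1*, an RNA helicase and the next gene, had a mean log2 value of 11.72 in TKO-Ras MEFs and 11.62 in TKO MEFs. Against WT, 3 of the 10 were called in TKO-Ras MEFs, 2 in TKO MEFs and 2 in Rb1KO MEFs, near the shares of 33.7%, 23.5% and 27.9% of all named genes, among them the resolvase gene *Gen1*, which rose by 1.55, 1.60 and 1.58. *Vsnl1*, *Cyria* and *Lratd1* were at or near background, where little change can be seen.

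**Figure D5:**
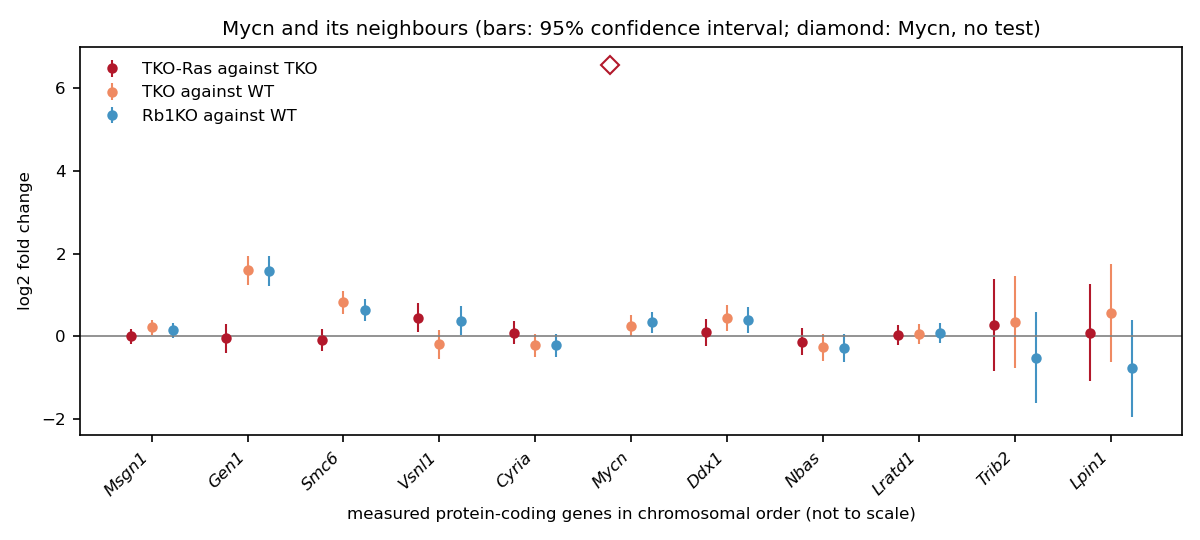
Log2 fold change of *Mycn* and of 10 measured protein-coding neighbours in chromosomal order (not to scale) in TKO-Ras against TKO, TKO against WT and Rb1KO against WT, with 95% confidence intervals, where the diamond is *Mycn* in TKO-Ras against TKO, shown without a test. The neighbours lie between -0.12 and 0.46 in TKO-Ras against TKO, and *Gen1* and *Smc6* lie above 0 in both knockouts.

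The genes whose levels followed *Mycn* most closely over the 12 arrays, of 12628 genes above background on at least 3 arrays, were *Gpr149*, *Esm1*, *Clic5*, *Hao1*, *Rorb*, *Blnk*, *Pcdh20* and *Cldn9*, with Pearson's r of 0.978 to 0.992. All of these genes but *Cldn9* passed that filter only through the TKO-Ras arrays, on which *Mycn* had been singled out. The values of r rest on the 3 TKO-Ras arrays against the other 9, and 0 of the 8 genes were among the closest 8 by Spearman's rho, so they are given as a description. *Esm1*, an endothelial proteoglycan, lay at 8.15 to 9.14 on the TKO-Ras arrays and at 2.84 to 3.0 on the TKO arrays. *Blnk*, an adaptor of B-cell receptor signalling, lay at 8.76 to 9.60 on the TKO-Ras arrays and at 4.49 to 5.19 on the TKO arrays. Of the other members, *Mxd4* had the lowest r with *Mycn* (-0.64) over the same 12 arrays.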

How the data were processed

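RNA of 12 MEF samples was hybridised to Affymetrix MOE430 2.0 arrays. According to the methods and the submitters' notes, the authors used RMA in Partek Genomics Suite 6.5 to correct background, normalize between arrays and summarise probes. The deposited values were taken to be log2, since they run from 2.18 to 14.92, and no filter is stated. After 64 control probe sets were left out, 45037 remained, of which 34945 carry 1 symbol and 932 several. Gene names came from the platform annotation, and 34741 matched RefSeq by gene number.

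All 12 arrays were fitted together with limma 3.58.1 in R 4.3.3 (8 residual degrees of freedom), with 5 contrasts, 2-sided tests and Benjamini-Hochberg adjustment over all probe sets. A probe set was called at an adjusted p under 0.05. The fit was tested on simulated data. Members and all 20 gene lists were chosen with earlier results of these data known. Named were the members, up to 4 called genes of each list with the largest change (not all are given), the 8 genes most like *Mycn* and its neighbours. Detection calls were not used here. Where all arrays of a group lay at background (5.13), folds are lower bounds against it. Alternatives covered the variance model, array weights, samples, scaling, filter, probe sets and replicates. Their use on the lists was added after the values were seen. The number of arrays limits the precision.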

Additional observations from a re-analysis of the deposited data

How the results depend on the processing

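*Mycn* in TKO-Ras against TKO kept a log2 fold change of 6.46 to 6.62 under every alternative but 1, the mean of all probe sets, which gave 2.29 since the other 2 probe sets enter it. The number of members called was 3 with only the groups compared (TKO-Ras against WT, 5 before), 5 with array weights (TKO against WT, 3 before), 1 with array weights (TKO against Rb1KO, 0 before), and 2 with probe sets without a suffix (Rb1KO against WT, 4 before), where *Myc* and *Mlx* have no such probe set; the cause was otherwise not tested. With 1 array left out it was 2 in TKO-Ras against TKO, 4 to 6 in TKO-Ras against WT, 3 to 4 in TKO against WT, 3 to 5 in Rb1KO against WT and 0 in TKO against Rb1KO. All counts of members here include *Mycn*, which carries no test in the comparisons with TKO-Ras, since its call there was set by the selection. *Mycn* in TKO against Rb1KO changed sign (-0.16 to 0.0055 with 1 array left out). *Mxd4* and *Mxd3* kept their direction and call against WT in all 3 comparisons under all 16 alternatives. *Mga* passed in TKO against WT with cyclic loess (-0.49) and in TKO against Rb1KO with array weights (-0.46). Of 22 member and comparison pairs that had an unadjusted p of at least 0.05, *Myc* and *Mycn* aside, 12 changed sign under some alternative and 0 passed. Of 128 calls of list genes, 44 were lost under at least 1 alternative and 3 changed sign, all of *Rbbp4*, at -0.20, -0.91 and -0.28 with probe sets without a suffix in TKO-Ras, TKO and Rb1KO against WT. Arrays with the same replicate number had deviations from the group means that correlated at -0.21 to 0.19 across probe sets. With 3 arrays in each group, these values cannot decide whether such arrays share a batch. With the replicate block, 3, 7, 4, 4 and 0 members were called in TKO-Ras against TKO, TKO-Ras against WT, TKO against WT, Rb1KO against WT and TKO against Rb1KO, and 2452 probe sets in the first of these. Over all alternatives, which differ in the number of probe sets tested, 1339 to 4431, 6391 to 16464, 4397 to 12949, 5279 to 14746 and 1873 to 5512 probe sets were called in that order. Whether the counts of members moved beyond such changes in all calls was not tested.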
